A study of Mus musculus with 6 samples.

Results

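In A9 cells, 3489 stretches of the genome carried a called H3K27ac region both after curcuphenol and after IFN-γ, and none with the DMSO vehicle. They were found by merging the 3 deposited lists of called regions wherever regions overlapped by at least 1 bp, which gave 70818 merged regions, and by keeping those that hold a curcuphenol and an IFN-γ region and no DMSO region. These new shared regions are 4.93% of all merged regions, and they were chosen by the presence or absence of calls in these same lists, so that their gain over DMSO is given by the rule. Merged regions with curcuphenol alone numbered 12915 and those with IFN-γ alone 11298, and 27636 merged regions were in all 3 lists. The shared set held 3507 curcuphenol called regions, 20.9% of the 16746 curcuphenol regions that no DMSO region overlaps, and 3740 IFN-γ called regions, 23.5% of the 15886 IFN-γ regions that no DMSO region overlaps. By this rule most regions gained with either treatment were not gained with the other. The rule leaves out a region that meets a call of the other treatment where that call reaches a DMSO region. The paper compared the lists in pairs and reports a higher overlap of the IFN-γ regions with curcuphenol.

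A9 is a metastatic clone derived from the mouse lung tumour line TC1 and has lost much of its MHC-I and antigen processing machinery (APM) expression. From 24 h after seeding, cells received curcuphenol (0.00167 μmol), IFN-γ (5.83 fmol) or the vehicle alone (1% DMSO) for 48 h, and chromatin of 130000 live cells was used per treatment. There was 1 H3K27ac library and 1 input library for each treatment, all from this 1 cell line, so differences between the lists carry no replicate check and no p-value is given. Intervals below are exact Clopper-Pearson 95% intervals for shares and order-statistic 95% intervals for medians, which cover counting error only. The lists hold positions but neither scores nor read counts, so the depth behind each list is unknown and a region absent from the DMSO list may still carry acetylation below the calling threshold. The DMSO list held 47899 regions, the curcuphenol list 48763 and the IFN-γ list 55622. Promoters of 8 of 9 mesenchymal marker genes carried a region in each list, while of 7 epithelial markers only Krt8 did, with DMSO and IFN-γ, and none of 6 leukocyte or 4 endothelial markers did in any list.

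Acetylation of histone H3 at lysine 27 marks active promoters and enhancers, and histone deacetylases remove it. IFN-γ acts through its receptor and the JAK kinases. Transcription factors of the STAT family then bind gamma-activated sites, and those of the IRF family bind interferon-response elements in genes of antigen presentation. Curcuphenol is a sesquiterpene phenol of marine sponges and plants that the study examined as an epigenetic agent restoring MHC-I expression. Regions acetylated after both treatments address the question of what the agents have in common at the chromatin level.

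The sequences that 8 of the shared regions carry around matches to interferon-type or AP-1 letters show what such a site looks like here. Capitals mark the match: GAAANNGAA for the interferon-response type, which IRF factors bind, TTCNNNGAA for the gamma-activated site type, which STAT factors bind, and TGANTCA for AP-1, each on either strand. All are from GRCm38.p6 (the assembly that mm10 names), plus strand, and none overlaps a curated exon. First come shared regions nearest to interferon genes: downstream of Irf4 and upstream of Irgm1, both between genes, then upstream of Parp9 in an intron of another transcript, upstream of Ddx60 between genes, and in an intron of Tap2.
Irf4 (chr13:30788413-30788612): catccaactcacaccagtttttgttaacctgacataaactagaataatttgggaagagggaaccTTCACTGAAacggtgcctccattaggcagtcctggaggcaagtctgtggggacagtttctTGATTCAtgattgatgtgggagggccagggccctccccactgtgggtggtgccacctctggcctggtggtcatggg
Irgm1 (chr11:48877650-48877849): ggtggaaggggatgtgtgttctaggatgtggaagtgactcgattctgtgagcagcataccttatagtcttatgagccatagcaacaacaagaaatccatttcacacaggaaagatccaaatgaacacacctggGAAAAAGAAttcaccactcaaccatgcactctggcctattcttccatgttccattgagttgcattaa
Parp9 (chr16:35929944-35930043): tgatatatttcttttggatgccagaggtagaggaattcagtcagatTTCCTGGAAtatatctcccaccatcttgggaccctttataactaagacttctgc
Ddx60 (chr8:61920230-61920329): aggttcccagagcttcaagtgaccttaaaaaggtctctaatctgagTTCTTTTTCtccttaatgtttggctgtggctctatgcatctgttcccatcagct
Tap2 (chr17:34209954-34210053): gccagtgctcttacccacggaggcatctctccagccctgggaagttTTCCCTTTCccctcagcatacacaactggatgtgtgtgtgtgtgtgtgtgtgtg
The Irf4 sequence holds a STAT-type and an AP-1 match, the Parp9 sequence a STAT-type match, and the other interferon-gene sequences 1 IRF-type match each. Next come a region in an intron of Ankrd33b and the promoter of Il23a, each with the same AP-1 letters, and a region nearest to Actr2 with a STAT-type match, the first and the last from the 10 widest shared regions.
Ankrd33b (chr15:31336865-31336964): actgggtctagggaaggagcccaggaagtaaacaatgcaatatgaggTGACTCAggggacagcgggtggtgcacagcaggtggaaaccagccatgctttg
Il23a (chr10:128298118-128298217): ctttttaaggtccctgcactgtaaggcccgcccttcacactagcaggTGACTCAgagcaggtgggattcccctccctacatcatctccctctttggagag
Actr2 (chr11:20038378-20038577): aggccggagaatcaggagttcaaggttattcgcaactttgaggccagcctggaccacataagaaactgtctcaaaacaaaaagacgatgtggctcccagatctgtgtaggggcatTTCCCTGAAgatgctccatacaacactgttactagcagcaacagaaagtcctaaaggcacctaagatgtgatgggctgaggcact
The matches at Parp9 and Ankrd33b lie inside the curcuphenol region but outside the IFN-γ region, and the others lie inside both. Only the Irf4, Irgm1 and Actr2 windows were centred on the base pairs that both lists share. The remaining windows, and the requirement of a match and of no exon, were chosen after the values were seen. A match of letters is a description and does not show that a factor is bound.

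Shares of AP-1 and IRF-type letters in the shared regions lay nearer to those of regions with curcuphenol alone than with IFN-γ alone. AP-1 letters were the most frequent of the 11 motifs searched there. The motifs differ in their number of fixed letters, so a rank between motifs carries little meaning. In the 500 bp at the centre of the shared base pairs, 27.9% of the 3489 regions (95% interval 26.4 to 29.4%) held an AP-1 match, against 27.6% with curcuphenol alone, 17.3% with IFN-γ alone, 29.4% in all 3 lists and 25.9% of all merged regions. The interferon-response type was found in 14.7% of shared regions (13.6 to 16.0%), against 15.5% with curcuphenol alone, 21.1% with IFN-γ alone, 15.0% in all 3 lists and 17.4% of all merged regions. The gamma-activated site type was found in 14.7% of them (13.5 to 15.9%), against 14.2 to 15.5% over the same classes. Either interferon-type motif was present in 27% of shared regions, 28.3% with curcuphenol alone and 32.6% with IFN-γ alone. The shared regions therefore showed no excess of interferon-type letters over merged regions at large, while regions with IFN-γ alone did for the IRF type. Regions with DMSO that did not have both treatments were not listed as a separate class. Over all 70818 merged regions, 12315 held an IRF-type match. Shared regions held 514 of these, curcuphenol alone 2007, IFN-γ alone 2388 and all 3 lists 4132. The matches left over put the unlisted regions at a share near that of IFN-γ alone. Over all widths this excess was therefore not particular to IFN-γ alone. STAT-type counts were 10881, 513, 1998, 1710 and 3926 in that order, which puts the unlisted regions above every listed class.

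The IRF contrast widened with region width, in width classes set after the values were seen. Width is that of the merged region, which spans both calls in shared regions but is the call itself with either treatment alone. In shared regions the median merged width was 1010 bp and the median IFN-γ length 529 bp. A width class therefore does not match the classes by IFN-γ length. Among merged regions of 1000 to 2000 bp, 15.4% of 1283 shared regions held an IRF-type match, close to 14.5% of 2832 regions with curcuphenol alone and far below 40% of 1198 regions with IFN-γ alone. At 2000 bp and above the values were 14.5% of 477 shared regions, 15.7% with curcuphenol alone and 45.5% of 178 with IFN-γ alone. Below 500 bp the classes lay closer, at 14.6%, 16.1% and 17.8%. The AP-1 share in shared regions was 20.2% below 500 bp, 23.5% from 500 to 1000 bp, 35.3% from 1000 to 2000 bp and 26.8% above that, and it exceeded that of IFN-γ alone in each width class, where the values were 16.1%, 17.4%, 23% and 21.9%. In the narrowest and the widest class the intervals of these AP-1 shares overlapped. With curcuphenol alone the AP-1 shares were 19.1%, 25.5%, 42.9% and 40.8%, so that from 1000 bp on the shared regions stood below curcuphenol alone, and in the widest class they lay nearer to IFN-γ alone. By GC content, the gap in IRF share narrowed as GC rose: shared regions had 15.7% against 25.5% with IFN-γ alone at 40 to 45% GC, 14.9% against 20.6% at 45 to 50%, 12.8% against 15.3% at 50 to 55% and 9.27% against 11.4% above that. The AP-1 share was 24.1% against 17.6% at 40 to 45% GC and 30.7% against 17.5% at 45 to 50%.

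**Figure D1:**
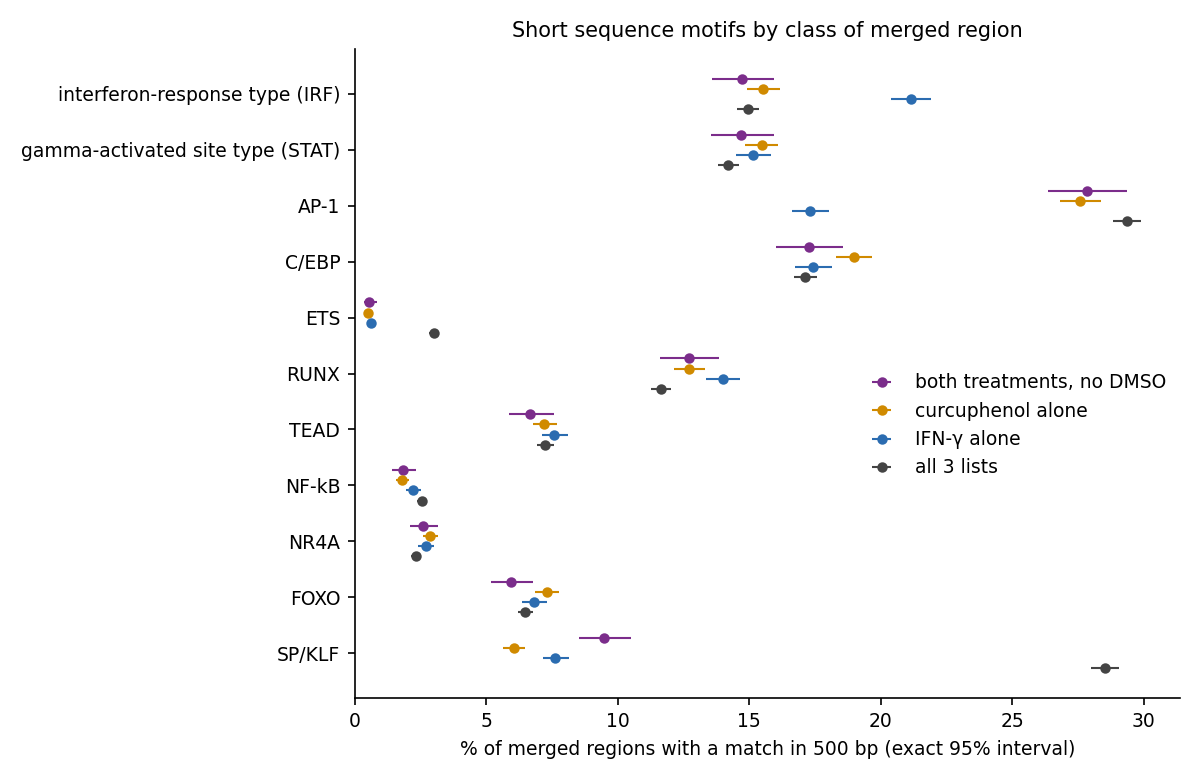
Share of merged regions with a match to each motif (x axis, %) in 500 bp at the centre of the base pairs common to the lists present; points are shares and lines exact 95% intervals for shared regions without DMSO, curcuphenol alone, IFN-γ alone and all 3 lists. The shared regions lie beside curcuphenol alone for the IRF type (14.7% and 15.5%) and AP-1 (27.9% and 27.6%), and apart from IFN-γ alone (21.1% and 17.3%). Regions in all 3 lists lie close to the shared regions as well (IRF type 15.0%, AP-1 29.4%).

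Motifs of promoters were less frequent in the shared regions than in all 3 lists. The SP/KLF letters GGGCGG were in 9.49% of them (8.53 to 10.5%), against 28.5% in all 3 lists, but above the 6.04% with curcuphenol alone and the 7.63% with IFN-γ alone. The ETS letters CCGGAAGT were in 0.545% against 3.01% in all 3 lists. Of the other motifs, C/EBP (TTGCNNAA) was in 17.3%, RUNX (TGTGGTT) in 12.7%, TEAD (ACATTCC) in 6.68%, FOXO (GTAAACA) in 5.93%, NR4A (AAAGGTCA) in 2.58% and NF-κB (GGGANTTCC) in 1.83%. Over all merged regions the same motifs were in 18.4%, 12.9%, 7.5%, 7.14%, 2.60% and 2.15%. C/EBP letters were in 19.0% of regions with curcuphenol alone and 17.4% with IFN-γ alone, and FOXO letters in 7.31% and 6.82%, so for these the shared regions lay nearer to IFN-γ alone. Matches to the IRF and STAT letters overlapped in 11 shared regions, STAT and AP-1 letters in 4 and IRF and AP-1 letters in 3.

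Shared regions were mostly longer with curcuphenol than with IFN-γ. Called length sums all calls of a list within a merged region. The median called length was 808 bp after curcuphenol (779 to 840 bp) and 529 bp after IFN-γ (518 to 548 bp), and the median merged width was 1010 bp, from 301 to 6811 bp. The log2 ratio of IFN-γ to curcuphenol length had a median of -0.43 (SD 1.08, n = 3489 regions), whereas in the 27636 regions of all 3 lists it was 0.16 (SD 0.80). Only 29.9% of shared regions (28.4 to 31.4%) were longer with IFN-γ, while 64.2% of the regions in all 3 lists were. At least 2 times the length with curcuphenol was seen in 30.8% of shared regions, against 5.63% in all 3 lists, and at least 2 times the length with IFN-γ in 6.65%, against 12.8%. The rule that no DMSO region overlaps was part of the choice of members, and the DMSO list shares more merged regions with the IFN-γ list alone (7343) than with the curcuphenol list alone (1161), so this contrast is a description of the class and not a test of the agents.

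Within each list, the shared regions stood between regions of 1 list and those of all 3. Curcuphenol calls, summed per merged region, had a median length of 595 bp where curcuphenol was alone, 808 bp in shared regions and 1607 bp in all 3 lists. IFN-γ calls, summed likewise, had medians of 450 bp alone, 529 bp shared and 1824 bp in all 3 lists. In 3227 shared regions (92.5%, against 78.6% in all 3 lists) exactly 1 region of each list met. Their centres were 117.5 bp apart in the median. The IFN-γ region lay wholly inside the curcuphenol region in 51.1% and the reverse held in 15.2%. The base pairs in common had a median of 429 bp, from 1 to 3093 bp, and made up at least 50% of both calls in 57.5% of shared regions against 80.1% in all 3 lists. Altogether the shared regions covered 4.24 Mb, of which 1.95 Mb was called with both treatments.

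**Figure D2:**
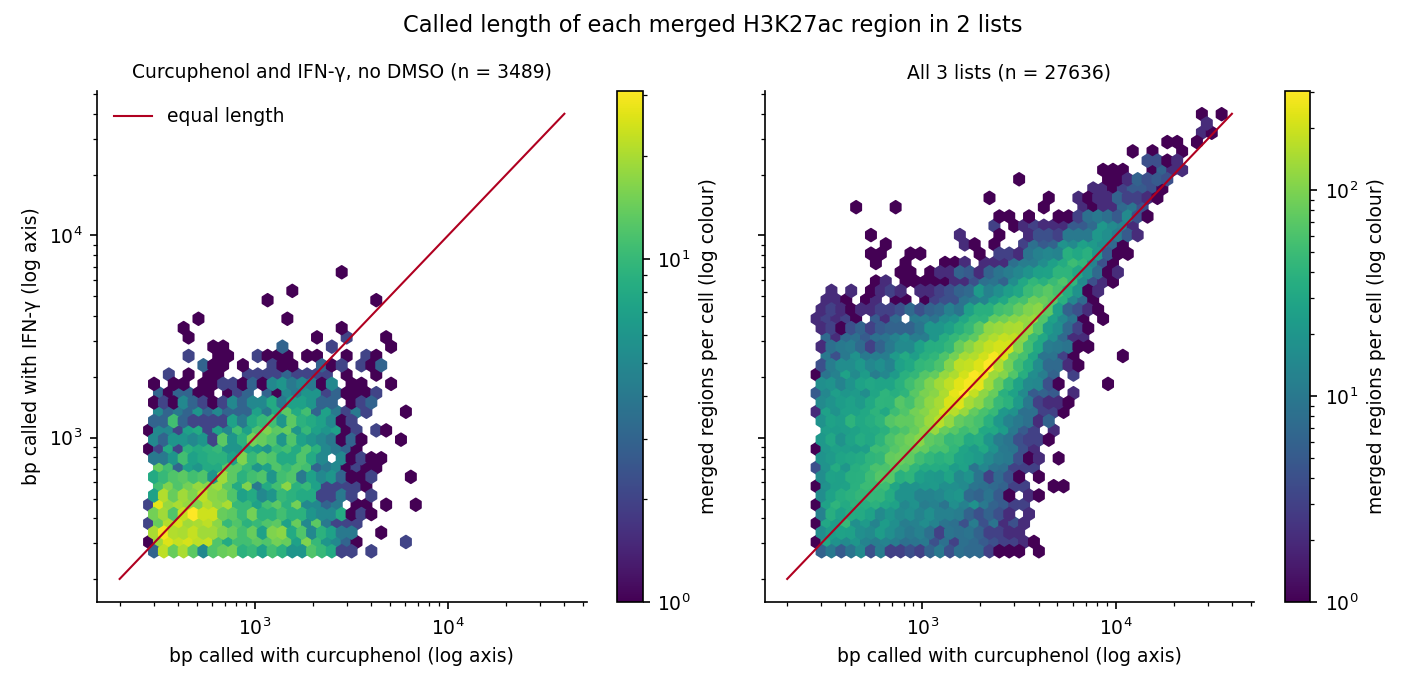
Called length with curcuphenol (x axis, bp, log scale) and with IFN-γ (y axis, bp, log scale) for the 3489 shared regions without DMSO (left) and the 27636 regions of all 3 lists (right); colour gives the number of merged regions per cell on a log scale and the line marks equal length. The shared regions spread below the line, with 29.9% longer with IFN-γ, while in all 3 lists 64.2% were.

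The overlap rule leaves members near its edge. The fewest base pairs in common were 1 bp in a region nearest to Sgms2, 25 bp near Itgb3 and 39 bp near Rusf1, and 17 shared regions had under 100 bp in common. A region in an intron of Eif4e touched a DMSO region without overlap, and those near Kcna4 and Lrrc32 lay 1 bp and 2 bp from one. Just outside, regions near Zzz3 and Sema6a were called with each treatment at touching but not overlapping positions, the pair near Celsr2 was 25 bp apart, and regions near Nt5m, Proc and Ahcyl1 overlapped a DMSO region by 12, 19 and 21 bp.

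Many shared regions flanked acetylation already present with DMSO. The median distance to the nearest DMSO region was 7426 bp, between 4191 bp for IFN-γ alone and 15094 bp for curcuphenol alone. A DMSO region lay within 1000 bp of 15.2% of shared regions, 6.88% of those with curcuphenol alone and 25% of those with IFN-γ alone. Within 10 kb the shares were 57.8%, 40.1% and 66.6%. The share longer with IFN-γ fell from 40.1% of the 529 shared regions within 1000 bp of a DMSO region to 30.3% of 1487 at up to 10 kb, 26.0% of 1116 at up to 50 kb and 25.2% of the 357 farther away.

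**Figure D3:**
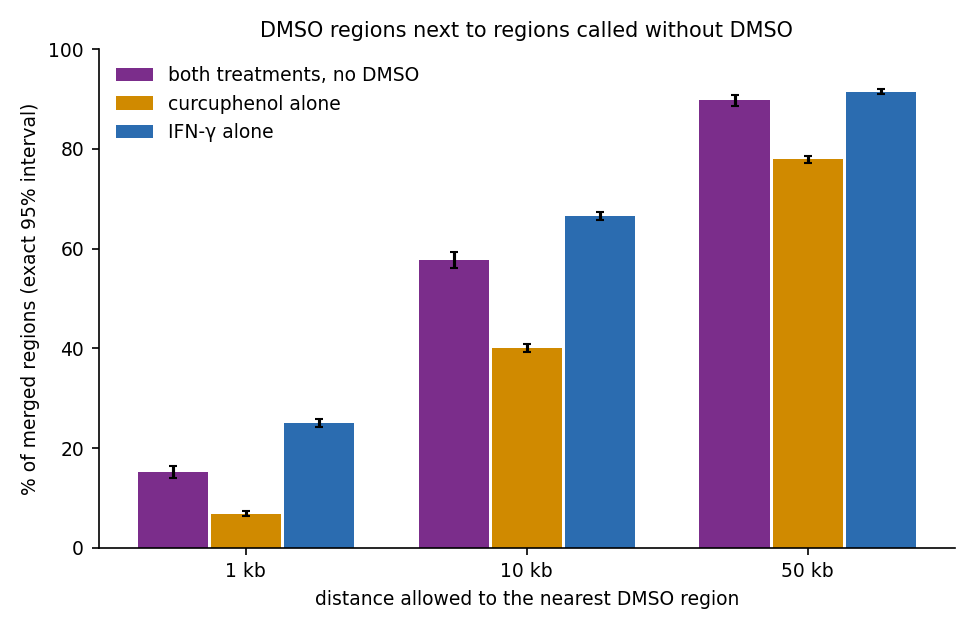
Share of merged regions (y axis, %) with a DMSO region within 1, 10 or 50 kb (x axis), for shared regions, curcuphenol alone and IFN-γ alone, with exact 95% intervals. Shared regions stood between the other classes at each distance, with 15.2% within 1 kb and 57.8% within 10 kb.

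The new shared regions were predominantly away from promoters. Introns held 1742 of them (49.9%) and intergenic sequence 1456 (41.7%), together 91.7% (90.7 to 92.6%), against 93.8% with curcuphenol alone, 91.8% with IFN-γ alone and 77.0% in all 3 lists. Promoters were taken as the 1000 bp before and the 100 bp after a transcription start (TSS) and held 92 (2.64%; 2.13 to 3.22%), against 1.25% with curcuphenol alone, 1.72% with IFN-γ alone and 14.3% in all 3 lists. The interval for shared regions lay above that for IFN-γ alone (1.49 to 1.97%). With called regions of at least 500 bp the share of shared regions was 1.92% (1.27 to 2.78%), which no longer lay above it. IFN-γ alone was not recomputed in that way. The rest lay at termination sites (68), in coding exons (60), 3′ UTRs (48), non-coding exons (16) and 5′ UTRs (7). The nearest TSS was 22458 bp away in the median, against 10331.5 bp in all 3 lists, with 1017 regions within 10 kb of a TSS and 458 more than 100000 bp away. Median GC content was 46.8%, against 45% with curcuphenol alone, 46.6% with IFN-γ alone and 48.2% in all 3 lists. Repeats marked in the assembly covered 18.7% of a region in the median, and 39 shared regions were at least 90% repeat. The share of merged regions that were shared ranged from 3.48% on chromosome X to 6.13% on chromosome 4 among the autosomes and X.

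At 42 shared regions the base pairs called with both treatments covered a TSS, of 45 genes in all. Of these genes, 5 had a DMSO region at any of their promoters, beside 11857 of the 26180 annotated genes. The rule allows no DMSO region over these TSSs, so a low count was largely set in advance. Nos2, the inducible nitric oxide synthase and a textbook IFN-γ target of macrophages, was among the 10 widest of these. Its curcuphenol region measured 1183 bp and reached from 808 bp before to 374 bp after the TSS (chr11:78919979-78921225 for the merged region). The IFN-γ region was of almost the same length, 1106 bp, with 1042 bp in common, and the nearest DMSO region was 30790 bp away. Il23a encodes the p19 subunit of interleukin-23, and its promoter region (chr10:128297491-128300050) measured 2107 bp after curcuphenol and 1371 bp after IFN-γ. At Dnmt3l, a catalytically inactive partner of the de novo DNA methyltransferases, the lengths were 2122 bp and 1456 bp.

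The other TSS regions among the 10 widest were also longer with curcuphenol, with 1 exception. The non-coding 4933430H16Rik had 3013 bp after curcuphenol and 1221 bp after IFN-γ, and Uchl1os, an antisense transcript, 1800 and 1118 bp. Entpd5, a nucleotidase of the secretory pathway, had 1452 and 918 bp. It was the only gene of the 10 with a DMSO region at one of its promoters, a low count that the rule largely sets. Cgref1 had 1426 and 717 bp, Arsg, a lysosomal sulfatase, 1347 and 660 bp, and Sybu, which encodes the kinesin linker syntabulin, 1201 and 698 bp. LOC115489947 was the exception, with 1105 bp after curcuphenol and 1256 bp after IFN-γ.

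In the interferon, MHC and antigen processing lists, 3.85 to 6.25% of the merged regions nearest to the genes were shared, on both sides of the 4.93% over all genes, and no test of a difference was possible. Of the 17648 genes nearest to any merged region, 2834 (16.1%) were nearest to a shared region. In the IFN-γ signalling list, which holds receptors, kinases, STATs and IRFs among others, 6 of 30 such genes were (20%). These were Camk2d, Cd274, Irf3, Irf4, Irf8 and Ptpn11, with no receptor or STAT gene. With the nearest TSS within 100000 bp the count was 5. In the list of interferon-stimulated genes 8 of 57 were (14.0%). The latter count was 2 with a reciprocal overlap of 50% and 3 with called regions of at least 500 bp. Of the merged regions nearest to interferon-stimulated genes, 10 of 204 (4.90%) were shared, beside 4.93% over all genes. With IFN-γ alone 92 were called (45.1%), beside 16.0% over all genes, and with curcuphenol alone 15 (7.35%), beside 18.2%. These classes divide the same total, so a high share with IFN-γ alone leaves less for the others. For IFN-γ signalling the counts were 9 of 198 shared (4.55%), 67 with IFN-γ alone (33.8%) and 14 with curcuphenol alone (7.07%). MHC-I genes had 1 of 23 regions shared, antigen processing genes 1 of 26, MHC-II genes 1 of 16, and chemokines 0 of 50. Of the 16 regions nearest to MHC-II genes, 13 were called with IFN-γ alone.

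The 22 shared regions nearest to 17 genes of the interferon and antigen presentation lists are described here. Of them 20 lay in introns or between genes, beside 91.7% of all shared regions. With 6 of 22 longer with IFN-γ (27.3%), they followed the whole class (29.9%). The 6 were those at Cd74, Cd274, Irf3 and Parp14, 1 of 2 at Irgm1 and 1 of 2 at Mx1. An IRF-type match was present in 4 of the 22, a STAT-type match in 3 and an AP-1 match in 6. Over all shared regions the shares were 14.7%, 14.7% and 27.9%, close to these on such small counts.

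Cd274 encodes the checkpoint ligand PD-L1, which IFN-γ is known to induce. Its shared region lay in an intron (chr19:29383495-29385966), from 16661 to 18127 bp downstream of the TSS with curcuphenol (1467 bp) and from 16057 to 18528 bp after IFN-γ (2472 bp). The whole curcuphenol region lay inside the IFN-γ region, and the nearest DMSO region was 11081 bp away. The TSS itself had a region in all 3 lists, of 1832 bp under DMSO, 1486 bp after curcuphenol and 2930 bp after IFN-γ. New acetylation shared by both agents was therefore called inside the gene, and not at its start.

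Tap2, a subunit of the peptide transporter that loads MHC-I, had a shared region in an intron (chr17:34209817-34211108), of 1292 bp after curcuphenol and 499 bp after IFN-γ. Its promoter was called in all 3 lists, with 461 bp under DMSO, 351 bp after curcuphenol and 2824 bp after IFN-γ. The length at the promoter was therefore greatest with IFN-γ and the length in the intron greatest with curcuphenol. H2-Q10, a secreted class I molecule of mouse, was the nearest gene of a region of 1277 bp after curcuphenol and 1188 bp after IFN-γ (chr17:35478455-35479732). This region was 98.4% repeat, and how uniquely its reads map was not tested.

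Cd74 encodes the invariant chain of MHC-II and had the greatest IFN-γ length of the 22. The merged region (chr18:60802071-60807512) held a curcuphenol region of 1604 bp and an IFN-γ region of 5440 bp. The calls began within 2 bp of each other upstream of the gene, but the curcuphenol region ended 175 bp before the TSS while the IFN-γ region ran on to 3663 bp downstream. The nearest DMSO region was 15354 bp away.

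Among interferon-induced genes, the antiviral ADP-ribosyltransferases Parp14 and Parp9 each had a shared region, inside the first and upstream of the second (chr16:35843050-35845086 and chr16:35927862-35931264). At Parp14 the lengths were 1534 bp after curcuphenol and 2010 bp after IFN-γ, and at Parp9 2399 and 1256 bp, of which only 252 bp were in common. Irgm1, an immunity-related GTPase, had a pair of shared regions upstream (chr11:48876999-48877962 and chr11:48878390-48878846), of 382 and 457 bp after curcuphenol and 920 and 341 bp after IFN-γ. At its TSS a region was called in all 3 lists, of 5275 bp under DMSO, 3598 bp after curcuphenol and 10719 bp after IFN-γ.

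Mx1, a dynamin-like antiviral GTPase, was nearest to a pair as well, with 553 and 1498 bp after curcuphenol and 576 and 1056 bp after IFN-γ. Ddx60, an antiviral helicase, had 1516 and 951 bp upstream. The RNA editing enzyme Adar had 2052 bp after curcuphenol and 288 bp after IFN-γ, the exonuclease Isg20 1679 and 382 bp, and the guanylate-binding protein Gbp6 1262 and 292 bp. At these last genes the IFN-γ call was a short stretch within a long curcuphenol call.

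Of the transcription factors that act in interferon responses, Irf4 had a pair of shared regions 38157 and 43546 bp downstream of its TSS (chr13:30785841-30788939 and chr13:30791764-30793793). They measured 3099 and 2030 bp after curcuphenol and 354 and 1146 bp after IFN-γ. Irf8 had a pair at 128189 and 163870 bp from its TSS, of 2280 and 2613 bp after curcuphenol and 1298 and 915 bp after IFN-γ. Neither gene had a DMSO region at its promoter, and at such distances the nearest gene is only a label of position. At Irf3 the region lay at the end of the gene, with 320 and 334 bp. Ptpn11, the phosphatase SHP-2, had a pair of 1757 and 1561 bp after curcuphenol and 348 and 1262 bp after IFN-γ, and the calcium-dependent kinase gene Camk2d had 649 and 272 bp.

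**Figure D4:**
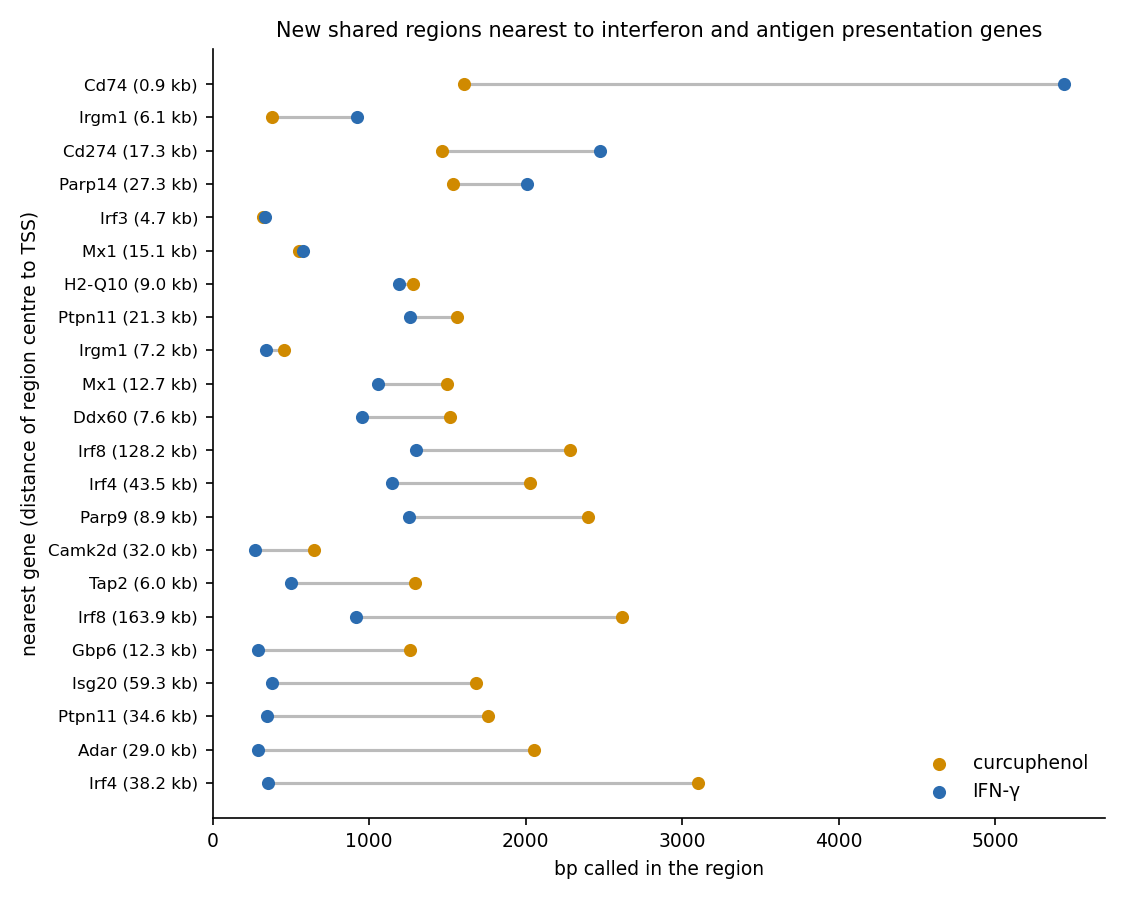
Called length (x axis, bp) with curcuphenol and with IFN-γ in the 22 shared regions nearest to genes of the interferon and antigen presentation lists (y axis, gene and distance of the region's centre from its TSS), ordered by the ratio of both lengths. In 6 of the 22 the IFN-γ point lies to the right, by the most at Cd74 (5440 against 1604 bp).

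**Figure D5:**
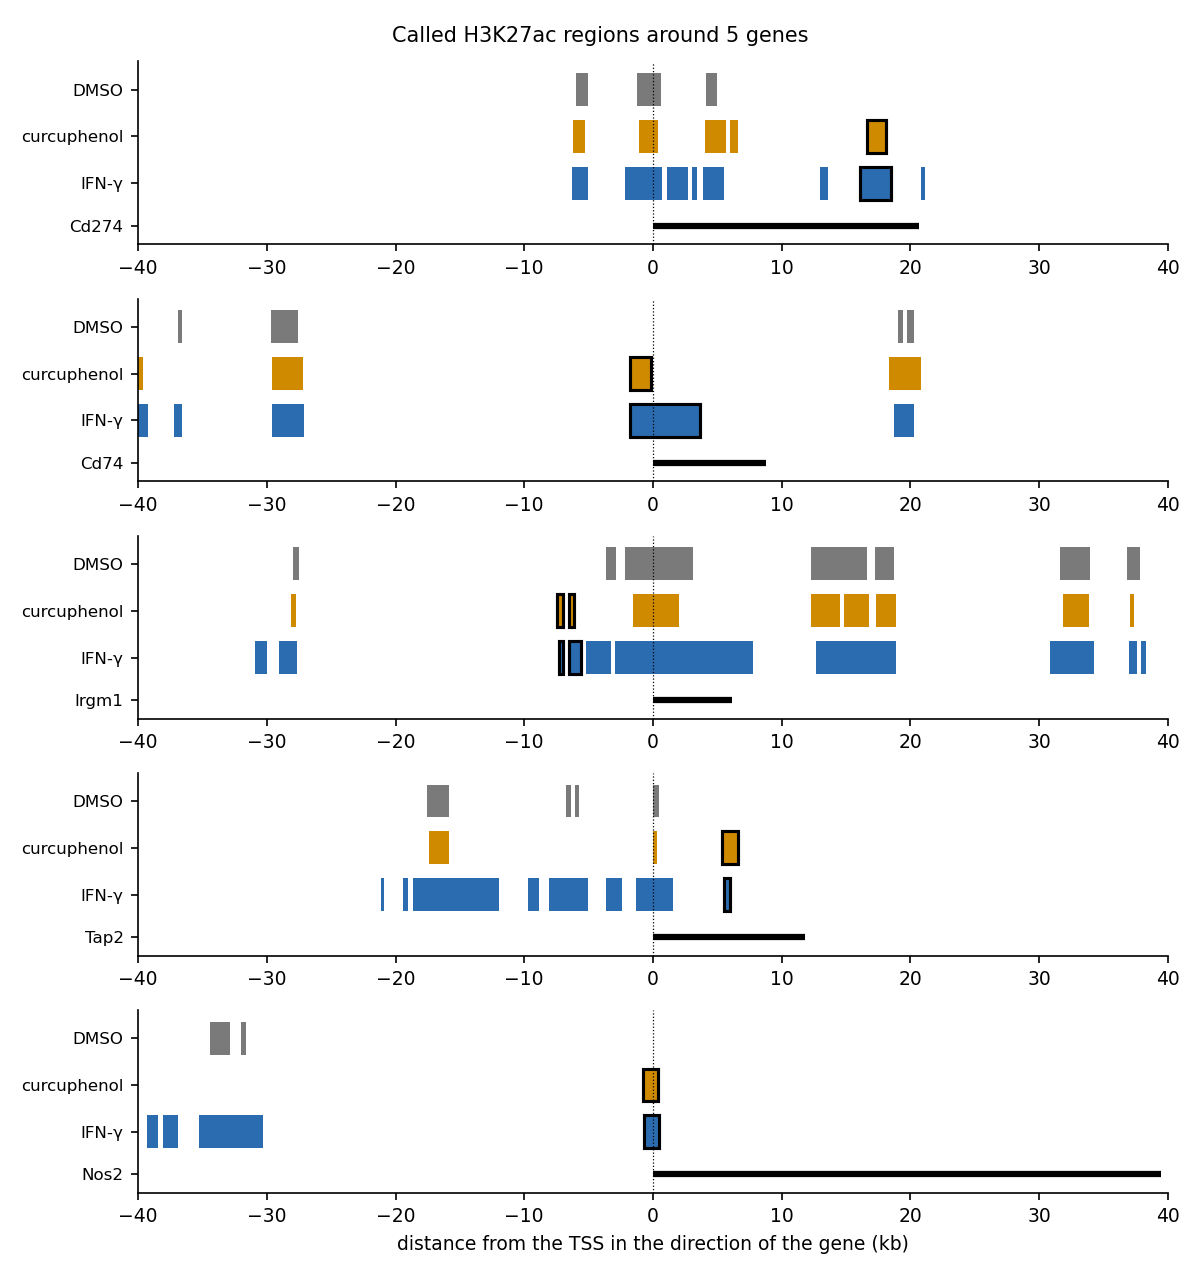
Called regions with DMSO, curcuphenol and IFN-γ (rows) around the TSS of Cd274, Cd74, Irgm1, Tap2 and Nos2 (x axis, kb in the direction of the gene, vertical dotted line at the TSS); black outlines mark shared regions and the black bar is the gene body. The TSS of Cd274, Irgm1 and Tap2 was called in all 3 lists, that of Nos2 with both treatments and that of Cd74 with IFN-γ only.

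The widest shared regions were mainly long curcuphenol domains with a short IFN-γ call inside, and a choice by merged width favours long calls. The share longer with IFN-γ, 3 of 10, was close to that of the whole class (29.9%). The widest lay in an intron of Pou2f1, which encodes the octamer-binding factor Oct-1 (chr1:165874282-165881092), with 6811 bp after curcuphenol and 470 bp after IFN-γ, 104038 bp from the nearest DMSO region. Ankrd33b had 6367 and 307 bp (chr15:31333756-31340122), and Aldh3a1, an aldehyde dehydrogenase, 6263 and 614 bp (chr11:61198591-61204853). A region 74558 bp from the TSS of Actr2, a subunit of the actin-nucleating Arp2/3 complex, had 6076 and 1316 bp. Map1b, a microtubule-associated protein, had 5881 and 983 bp, and 4933400F21Rik 5849 and 303 bp. Gpx3, a secreted glutathione peroxidase, had 4728 and 2198 bp. The 3 of the 10 that were longer with IFN-γ were Cd74 above, Gm13822 (2909 and 6452 bp, chr5:114908452-114914903) and Angptl2, a secreted angiopoietin-like protein (4071 and 4945 bp, chr2:33229043-33235412).

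Shared regions were scattered over many genes, with 2325 genes nearest to 1 shared region, 405 to 2 and 76 to 3. Cln8, a gene of an endoplasmic reticulum protein, had the most, 8 of its 33 merged regions, over 400252 bp. Plpp3, a phospholipid phosphatase, and Sgms1, a sphingomyelin synthase, had 6 each, the latter among only 20 merged regions. Ampd3, Ltbp1, Pdpn, Syt6, Tspan9 and 4930471G24Rik had 5 each, and Aebp2, a cofactor of Polycomb repressive complex 2, was the first in alphabetical order of 19 genes with 4. Pdpn encodes the membrane glycoprotein podoplanin, and 5 of its 13 merged regions were shared. Ltbp1, which binds latent TGF-β, had 37 merged regions, so genes with many regions have more chances to appear here. Of the 54 shared regions nearest to these 10 genes, 19 were longer with IFN-γ (35.2%, beside 29.9% of all shared regions). A gene with a DMSO region at a promoter was nearest to 49 of the 54, and Syt6 was the only gene of the 10 without one. Over all shared regions that share was 59.4%, and over all merged regions 65.6%. When regions within 12.5 kb were joined, 2989 shared regions stood singly and 500 lay in 237 clusters, of which 24 held 3 or more. The largest cluster, of 5 regions over 31510 bp at Hspb8 and Srrm4os on chromosome 5, had 11422 bp after curcuphenol and 3090 bp after IFN-γ.

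The other gene groups lay on both sides of the background of 16.1% of genes and 4.93% of regions, on small counts. A region is placed at a gene here when that gene has the nearest TSS, at any distance. FOXO targets had 4 of 12 genes and 9 of 111 regions (8.11%). Of these, 3 were at the antiproliferative gene Btg1, 4 at the pluripotency factor Klf4 and 1 each at the cyclin gene Ccng2 and the DNA damage response gene Gadd45a. The Klf4 regions were intergenic and lay from 237791 to 536421 bp from its TSS, where the nearest gene is only a label of position. IGF genes had 4 of 9 and 8 of 89 regions (8.99%), with 3 at Igf2bp2, an RNA-binding protein of the IGF2 transcript. Others were at the receptor Igf1r and the binding proteins Igfbp3 and Igfbp7, and 1 of those at Igfbp3 lay 580093 bp from its TSS. WNT genes had 7 of 16 and 9 of 150 regions (6%), among them the co-receptors Lrp5 and Lrp6, the receptor Fzd1, the antagonists Sfrp1 and Kremen1 and the ligand Wnt4. The Lrp5 region had its centre 579 bp from a TSS, with 1085 bp after curcuphenol and 440 bp after IFN-γ.

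TGF-β genes had 4 of 15 and 9 of 173 regions, 5 of them at Ltbp1 and others at the receptors Bmpr1a, Tgfbr1 and Tgfbr3. YAP and TEAD genes had 3 of 12 and 5 of 97, with 3751 bp after curcuphenol and 796 bp after IFN-γ in 1 of the 2 regions at the transcription factor Tead4, and the reverse order, 657 and 2882 bp, in the other. The targets Ccn1 and Ccn2 had 2 and 1. AP-1 genes had 3 of 11 and 3 of 48, at Jun, Batf3 and Maff. The acetyltransferase gene Kat6a had a pair of shared regions, of 665 and 1236 bp after curcuphenol and 663 and 1219 bp after IFN-γ. Histone deacetylases had 1 of 10 and 1 of 47, at Hdac8 (823 and 322 bp). Checkpoint ligands other than PD-L1 had 2 of 12 and 3 of 47, at Cd86 and Cd276. Cd86, a costimulatory ligand, had 1784 bp after curcuphenol and 1087 bp after IFN-γ in an intron.

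NF-κB genes had 1 of 12 and 1 of 81, at Nfkbiz, oxidative and xenobiotic genes 1 of 17, with 0.990% of their regions, at the glutathione transferase Gstp1, and NR4A genes 0 of 3 and 0 of 12. Of the markers, epithelial genes had 3 of 4 and 3 of 18, at the cadherin gene Cdh1 and the keratin genes Krt8 and Krt19, mesenchymal genes 1 of 9 and 1 of 96, leukocyte genes 1 of 2 and 1 of 3, at Itgam, and endothelial genes 0 of 4 and 0 of 16. Housekeeping genes had 2 of 10 and 2 of 48. Of the 58 shared regions nearest to the 38 genes looked up in these lists, 18 were longer with IFN-γ (31.0%), as in the whole class.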

How the data were processed

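H3K27ac ChIPseq and input libraries of A9 cells (1 of each per treatment) were analysed from the 3 deposited lists of called regions, whose other values are start and end positions in bp with no header, score or count. The authors aligned reads to mm10 with BWA (0.7.17 in the submitters' processing notes) and called regions with MACS2 (2.1.2, FDR 0.01) on each H3K27ac library against its own input. Duplicate filters and depth per list are not given in the sources used here.

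Narrow calling can split a broad domain, so lists were merged (overlap of at least 1 bp). Region ends lay inside GRCm38.p6 chromosomes. Centres were classed against 45756 curated RefSeq transcripts in Homer's order (promoter, termination site from 100 bp upstream to 1000 bp downstream, exon or UTR, intron, intergenic) and assigned to the nearest TSS. GC was read in 500 bp at the merged centre, and motifs in 500 bp at the centre of the widest stretch common to the lists present. Merging, distances and motif search were tested on simulated regions. Python 3.11.15, numpy 2.4.6, scipy 1.17.1, pysam 0.24.0 and matplotlib 3.10.9 were used.

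Members, 23 gene lists (337 entries) and motifs were chosen with earlier results of these data known. Named are the 10 widest regions, the 10 genes with the most shared regions, all genes of the interferon, MHC and antigen processing lists, up to 6 genes of each other list and the 10 widest regions with a TSS in the common base pairs. Cd274 was counted in the IFN-γ signalling list. Alternatives were a reciprocal overlap of 50%, no DMSO region within 1000 bp, regions of at least 500 bp, promoters of 2000 bp either side, GC over the whole region, a 200 bp motif window, predicted transcripts and a TSS limit of 100000 bp. The count for the list of acetyltransferases is not reported here.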

Additional observations from a re-analysis of the deposited data

How the results depend on the processing

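With 1 library per treatment no replicate could be left out, and no test threshold exists. No paired analysis was possible because each treatment has 1 library and the labels share replicate number 1 only. Of 86 recomputed values 53 moved by less than their counting interval, or by at most 1.5 times for counts, and 33 moved further. A reciprocal overlap of 50% gave 1875 regions, a median curcuphenol length of 587 bp, 38.3% longer with IFN-γ, a median GC of 47.4%, 1665 nearest genes, 2 interferon-stimulated genes and a median distance to DMSO regions of 6855 bp. Leaving out curcuphenol and IFN-γ regions under 500 bp gave 1408 regions, 92.6% in introns or intergenic, 1.92% at promoters, median lengths of 1200.5 bp (curcuphenol) and 835 bp (IFN-γ), a GC of 47.2%, AP-1 in 35.9%, NF-κB in 1.28%, 1265 nearest genes and 3 interferon-stimulated genes. With no DMSO region within 1000 bp, the median curcuphenol length was 890.5 bp, 28.1% were longer with IFN-γ and the median distance was 9963 bp. With promoters of 2000 bp on either side, 6.53% were at promoters and 88.8% in introns or intergenic. In a 200 bp window the shares were IRF 5.62%, STAT 5.62%, AP-1 11.7%, C/EBP 7.37%, ETS 0.287%, RUNX 5.62%, TEAD 2.75%, NF-κB 0.717%, NR4A 1.20%, FOXO 2.03% and SP/KLF 3.84%, as a shorter window holds fewer matches. There, regions with IFN-γ alone had IRF in 8.99% and AP-1 in 6.87%, and those with curcuphenol alone 6.15% and 12.6%, so IFN-γ alone kept the highest IRF and the lowest AP-1 share of these classes, while the AP-1 share of shared regions fell from just above to just below that of curcuphenol alone.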
